A study of Mus musculus with 2 samples.

Results

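The RUNX and ETS transcription factors described here are 10 genes taken by name, whatever their level, of 43346 Ensembl genes measured: Runx1, Runx2, Runx3, Cbfb, Fli1, Erg, Etv6, Ets1, Ets2 and Gabpa. The cells were megakaryocytes, the large blood cells that release platelets, taken as primary cells from mouse embryos at day 14.5 with males and females pooled. Polyadenylated RNA was sequenced in paired end mode in 2 libraries of a single group, and the labels give no strain, genotype, treatment or second cell type, so no condition could be compared. Both libraries cite the same biosample and donor, so part of the difference between them may be technical. Replicate 1 held 42099216 expected counts and replicate 2 held 2275922, which is 18.5 times fewer. All 10 genes had a count in replicate 1 and 7 had one in replicate 2.

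RUNX proteins bind DNA through the Runt domain, and their affinity rises when they pair with CBFB, a partner that does not touch DNA itself. ETS proteins share a winged helix domain that reads a short GGA core, and family members bind beside RUNX and GATA factors at many promoters and enhancers of megakaryocyte genes. RUNX1 and FLI1 are known for their part in megakaryocyte maturation, and inherited loss of RUNX1, FLI1 or ETV6 function lowers platelet numbers. RUNX genes have a distal and a proximal promoter, which give proteins with different first residues.

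Most RUNX TPM in these libraries was assigned to transcripts of the proximal region, and the promoter windows of the genes are shown first. The windows do not cover every start in use. Runx1-203, with 94.0% and 98.6% of Runx1 TPM, starts 1203 bases after the start in the proximal window, and Runx2 has no proximal window here. The windows are from RefSeq on GRCm38.p6 and run from 250 bases before to 50 bases after an annotated start. They are printed 5′ to 3′ on the strand of the gene, with the RUNX core letters TGTGGT, or ACCACA on the other strand, in capitals. The 3 distal windows are chr16:92826025-92826324 (minus strand) for Runx1, chr17:44814578-44814877 (minus strand) for Runx2 and chr4:135120395-135120694 (plus strand) for Runx3.
Runx1 distal: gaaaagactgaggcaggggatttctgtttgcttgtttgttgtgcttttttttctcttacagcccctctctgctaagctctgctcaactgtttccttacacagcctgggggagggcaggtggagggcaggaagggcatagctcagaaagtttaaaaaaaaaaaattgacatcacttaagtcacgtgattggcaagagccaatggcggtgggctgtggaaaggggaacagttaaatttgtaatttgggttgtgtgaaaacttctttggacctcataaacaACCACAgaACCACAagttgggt
Runx2 distal: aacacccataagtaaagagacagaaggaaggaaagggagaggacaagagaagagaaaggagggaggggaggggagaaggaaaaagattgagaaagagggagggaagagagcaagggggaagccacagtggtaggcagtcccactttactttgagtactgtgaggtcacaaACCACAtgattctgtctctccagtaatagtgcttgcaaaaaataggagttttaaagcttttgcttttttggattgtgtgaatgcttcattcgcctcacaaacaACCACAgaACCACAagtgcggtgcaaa
Runx3 distal: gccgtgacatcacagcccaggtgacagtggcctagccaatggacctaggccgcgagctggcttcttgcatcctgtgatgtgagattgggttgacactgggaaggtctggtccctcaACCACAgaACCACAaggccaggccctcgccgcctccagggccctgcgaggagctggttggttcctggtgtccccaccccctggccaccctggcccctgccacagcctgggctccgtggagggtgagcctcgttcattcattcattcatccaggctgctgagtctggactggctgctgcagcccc
The 2 proximal windows are chr16:92697280-92697579 (minus strand) for Runx1, which lies at the start of the transcript Runx1-202, and chr4:135152295-135152594 (plus strand) for Runx3, which lies at the start of Runx3-202.
Runx1 proximal: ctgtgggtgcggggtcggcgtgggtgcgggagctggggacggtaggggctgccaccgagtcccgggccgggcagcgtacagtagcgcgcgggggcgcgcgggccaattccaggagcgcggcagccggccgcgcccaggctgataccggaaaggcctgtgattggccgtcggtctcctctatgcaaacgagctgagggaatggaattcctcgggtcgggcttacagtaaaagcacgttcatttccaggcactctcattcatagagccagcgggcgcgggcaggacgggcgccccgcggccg
Runx3 proximal: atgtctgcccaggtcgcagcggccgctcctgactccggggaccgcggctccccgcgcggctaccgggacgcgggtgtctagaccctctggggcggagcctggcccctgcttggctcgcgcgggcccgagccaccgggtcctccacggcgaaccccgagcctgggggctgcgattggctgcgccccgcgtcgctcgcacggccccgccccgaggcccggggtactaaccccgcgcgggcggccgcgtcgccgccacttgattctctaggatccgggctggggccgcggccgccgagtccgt

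All 3 distal windows held a pair of RUNX cores spaced as ACCACANNACCACA, and neither proximal window held a core. In Runx1 the paired cores began 28 and 36 bases after the start, and in Runx2 23 and 31 bases after it. In Runx3 they began 134 and 126 bases before the start, and Runx2 had a further core 80 bases before its start. Around the pair, the Runx1 and Runx2 windows shared an unbroken run of 22 bases, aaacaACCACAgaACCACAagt, and each shared 18 bases with the Runx3 window. Of 32851 promoter windows of the same length, 16.8% held at least 1 RUNX core on either strand and 7 (0.0213%) held the pair on either strand. Those 7 were the 3 RUNX genes, Gm12236, Gm15462, Olfr24 and Gm16225, whose window overlaps the Runx3 distal window on the opposite strand and holds the same pair. The spacing of the pair was searched for after the windows had been read, and a match describes letters, not a bound site.

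The proximal windows were rich in C and G instead. GC content was 69.0% in the proximal window of Runx1 and 77.3% in that of Runx3, with 35 and 45 CG dinucleotides. The distal windows had GC contents of 45.0% for Runx1, 45.3% for Runx2 and 63.7% for Runx3, with 2, 2 and 8 CG dinucleotides. Over all windows the medians were 52.7% and 7. Windows were found for 8 of the 10 genes (12 windows in all), which leaves out Fli1 and Ets1. The ETS letters CGGAAG or CTTCCG stood in 16.9% of all windows and, among these genes, once in Gabpa, 93 bases before its start. Other letters around the GGA core were not searched, and AGGAAG, for example, stands in the Cbfb and Gabpa windows. The GATA letters AGATAA or TTATCT stood in 11.2% of all windows and once in a window of Erg, 103 bases before its start.

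Megakaryocyte markers were present at high levels in both libraries, and 10 of 10 reached a mean of 1 TPM (a level corrected for transcript length and scaled to a fixed total per library), with sums of 18111 TPM in replicate 1 and 26584 in replicate 2. Of 10 macrophage markers 7 reached that mean, with sums of 874 and 229 TPM and with Cd163 and Timd4 at 0. Of 10 granulocyte markers 8 did, with sums of 854 and 150 TPM and with Ly6g at 0. Erythroid markers (5 of 8) summed to 5363 and 13382 TPM, of which Hba-a1 alone made 4480 and 12716, while Hbb-bs (727 and 481 TPM) and Klf1 (11.5 and 8.15 TPM) were lower in replicate 2. Stem and progenitor markers (4 of 7, Mecom at 0) summed to 219 and 258 TPM, of which Myct1 made 157 and 244, while Kit, Cd34 and Slamf1 were lower in replicate 2. Endothelial markers (3 of 8, Robo4 at 0) summed to 133 and 81.4 TPM. Hepatocyte markers (2 of 8, Alb at 0) summed to 56.4 and 9.87 TPM, of which Trf alone made 54.7 and 7.9. None of 10 lymphoid markers (3.6 and 2.89 TPM) or of 6 osteoblast markers (0.5 and 0.89 TPM) reached the mean. Fewer cells of a type and less RNA per cell cannot be told apart in bulk libraries.

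Of the 10 factors, 9 reached a mean of 1 TPM and 6 reached 1 TPM in each library, where 22.7% of all Ensembl genes reached the mean. Ets1 was the exception. By means over the 2 libraries (± SD, n = 2) the order ran from Runx1 at 616 ± 432 TPM through Runx3 at 274 ± 214, Etv6 at 204 ± 82.8, Fli1 at 40.4 ± 26.9, Cbfb at 8.36 ± 8.78, Ets2 at 2.96 ± 2.75, Erg at 1.89 ± 2.67, Gabpa at 1.06 ± 1.49 and Runx2 at 1.01 ± 1.43 down to Ets1 at 0.095 ± 0.0212. In that order the ranges of neighbouring genes separated at only 2 steps, from Etv6 to Fli1 and from Fli1 to Cbfb. The other 7 neighbouring pairs overlapped. Runx1 was nonetheless above Runx3 within each library, as were Cbfb above Ets2 and Ets2 above Erg.

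**Figure D1:**
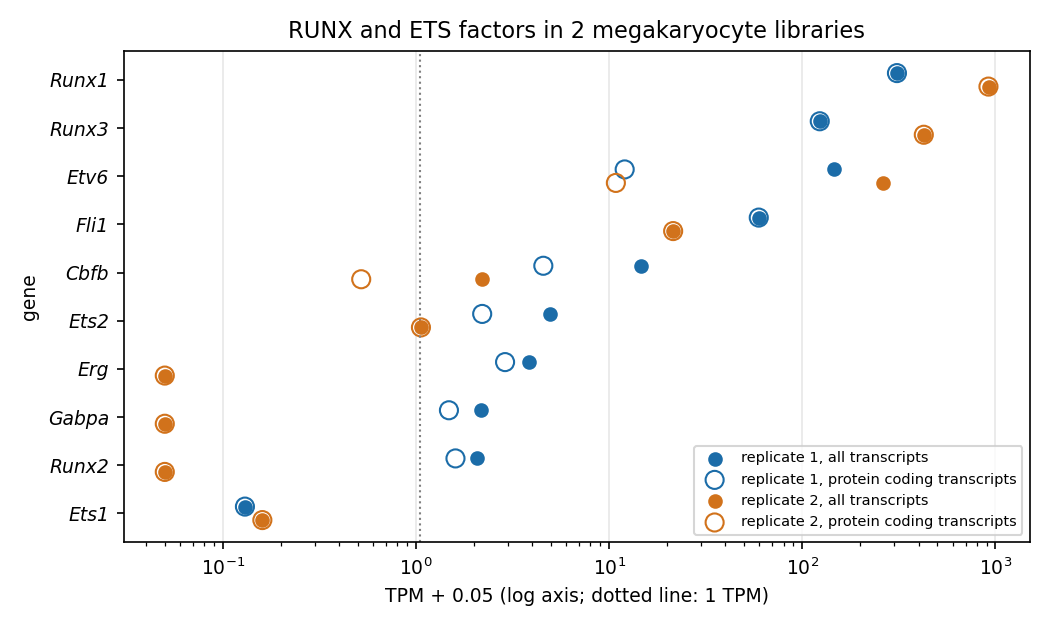
TPM (with 0.05 added so that 0 can be drawn on the log axis) of the 10 genes in replicate 1 (blue) and replicate 2 (orange), with filled points for all transcripts and open circles for protein coding transcripts only. Runx1 is highest in both libraries, Runx1 and Runx3 are higher in replicate 2, and the open circles of Etv6 (11.98 and 10.78 TPM) and Cbfb (4.51 and 0.47 TPM) fall well under their filled points.

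Among the DNA-binding RUNX genes, Runx1 (chromosome 16, 92601466 to 92826149, mm10, minus strand), the RUNX gene required for the first adult-type blood cells, stood at 309.83 TPM in replicate 1 and 921.29 TPM in replicate 2. It was the gene with rank 474 in the first library and rank 177 in the second. Its counts were 24901 (exact 95% interval 24593 to 25212) and 3218 (3108 to 3331). Runx1 was thus abundant in both libraries and higher in the shallower one.

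Runx3 (chromosome 4, 135120652 to 135177990, plus strand), best known from T cells and sensory neurons, stood at 123.09 and 425.65 TPM, at ranks 1083 and 394, from 9633 and 1457 counts. Runx2 (chromosome 17, 44495987 to 44814797, minus strand), the regulator of bone formation, stood at 2.02 TPM in replicate 1 from 116 counts (95.9 to 139) and was at 0 in replicate 2. The balance among the RUNX genes was alike in both libraries. Runx1 was 2.52 times Runx3 in TPM in replicate 1 and 2.16 times in replicate 2, and it made up 71.2% and 68.4% of the summed RUNX TPM. That sum was 435 TPM in the first library and 1347 in the second. Runx2 overlaps Supt3 (591 and 29 counts) and Runx2os1 (62 and 6 counts) on the opposite strand, and whether counting used strand is not given in the sources used here, so the value of Runx2 is uncertain. Runx3 overlaps Gm16224 (17 and 0 counts) in the same way.

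Cbfb (chromosome 8, 105170674 to 105217989, plus strand), the shared partner of the RUNX proteins, was far lower than Runx1 and Runx3. It stood at 14.56 TPM in replicate 1 from 586 counts (540 to 635) and at 2.15 TPM in replicate 2 from 3 counts (0.619 to 8.77). Summed RUNX TPM was 29.9 times the Cbfb TPM in replicate 1. In replicate 2 the quotient was 626, which rests on those 3 Cbfb counts.

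Fli1 (chromosome 9, 32422204 to 32542861, minus strand) and Erg (chromosome 16, 95359169 to 95586593, minus strand) are close relatives within the ETS family, and both act in blood stem cells and the megakaryocyte lineage. Fli1 stood at 59.45 TPM in replicate 1 and 21.39 TPM in replicate 2, from 7421 (7253 to 7592) and 126 (105 to 150) counts, at ranks 1886 and 3167. Erg stood at 3.78 TPM from 229 counts in replicate 1 and was at 0 in replicate 2. Fli1 was therefore the main one of the pair, at 15.7 times the TPM of Erg in replicate 1, and no quotient can be given for replicate 2.

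Etv6 (chromosome 6, 134035700 to 134270158, plus strand), an ETS repressor, stood at 145.73 and 262.86 TPM, from 3931 (3809 to 4056) and 216 (188 to 247) counts. Its level by TPM depends on 1 short non-coding transcript, described with the transcripts. Ets1 (chromosome 9, 32636221 to 32757820, plus strand), the founding member of the family and a lymphoid factor, stood at 0.08 and 0.11 TPM from 16 counts (9.15 to 26.0) and 1 count (0.0253 to 5.57). Ets2 (chromosome 16, 95702075 to 95721051, plus strand), its paralog, stood at 4.90 and 1.01 TPM from 380 and 7 counts. Fli1 was 743 and 194 times Ets1 in TPM, and 12.1 and 21.2 times Ets2. Gabpa (chromosome 16, 84834925 to 84863779, plus strand), the ETS subunit of a factor with broad roles in mitochondrial and housekeeping gene expression, stood at 2.11 TPM in replicate 1 from 183 counts (157 to 212) and was at 0 in replicate 2. Gabpa overlaps Atp5j (3298 and 202 counts) on the opposite strand, so its value is uncertain as well.

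Several of these genes lie near each other. Chromosome 16 holds 4 of them, and Erg and Ets2 are 115 kb apart there, while Runx1 and Erg are 2533 kb apart. Fli1 and Ets1 are 93.4 kb apart on chromosome 9, where Fli1 stood far above Ets1 in both libraries.

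The libraries were then compared gene by gene, as the ratio of replicate 2 to replicate 1 after TMM scaling (a trimmed mean that sets the typical gene near equal). The bracketed exact 95% intervals cover counting error only, and with 1 library on each side a ratio compares libraries and has no replicate check. At a mean count of at least 100, which 7 of the 10 genes passed (Runx2, Ets1 and Gabpa did not), 2 genes were past 2-fold upward in replicate 2 and 4 were past 2-fold downward. Over all 8194 genes at that minimum, 15.7% were past 2-fold upward and 33.8% downward. Replicate 1 was 18.5 times deeper and could meet this minimum alone, as it did for Cbfb, Erg and Ets2. The minimum therefore favours downward calls, here and in the gene lists below. A mean of at least 50 CPM (counts scaled by library size) weighs the libraries alike. Of 4 factors that met it, 2 were past 2-fold upward and 1 (Fli1) downward, against 26.4% and 15.8% of 2575 genes.

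The 2 higher genes were the abundant RUNX genes. Runx1 had a ratio of 3.24 (3.12 to 3.36) and Runx3 one of 3.79 (3.59 to 4.01). Both stayed past 2-fold under every scaling tried, from 2.39 with total counts to 4.46 with the GC trend removed for Runx1, and from 2.80 with total counts to 3.88 with DESeq2 size factors for Runx3. Etv6 lay between the 2-fold limits at 1.38 (1.20 to 1.58). Its ratio ran from 1.02 with total counts to 1.72 with the GC trend removed and 1.80 by TPM.

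The 4 lower genes were Fli1, Cbfb, Erg and Ets2. Fli1 was 2.35-fold lower (ratio 0.426, 0.354 to 0.508). Cbfb had a ratio of 0.128 (0.0264 to 0.377), from 3 counts in replicate 2. Ets2 had one of 0.462 (0.184 to 0.961) from 7 counts, and the intervals of both Fli1 and Ets2 reach beyond the 2-fold limit. Erg had no count in replicate 2 and was at least 3.05-fold lower, set against a floor of 3 counts in that library. By the same floor Gabpa was at least 2.43-fold and Runx2 at least 1.54-fold lower, while Ets1, with 1 count, had a ratio of 1.57 (0.0374 to 10.1).

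GC content moved with these ratios over all genes. The median log2 ratio over all genes at the count minimum was -0.30 (-0.74 with total counts and -0.26 with DESeq2 size factors). In 5 equal classes of genes, from the lowest GC content to the highest, it ran -0.82, -0.56, -0.32, -0.016 and 0.48. Of the lower genes, Cbfb (42.5% GC in its longest transcript) and Fli1 (44.5%) belong to the lowest of the 5 GC classes, and Ets2 (52.6%) and Erg (50.8%) to the middle one. With the GC trend removed, Fli1 had a ratio of 0.620 and was no longer past 2-fold. Runx1 (46.4% GC) lay well above the median of its class, and so did Runx3 (55.9%). Their longest measured transcripts were minor forms in both libraries. Runx1-201 held 9.72% and 1.30% of Runx1 counts, and Runx3-201 held 25.5% and 13.5% of Runx3 counts. The GC content of the leading forms was not used, so the classes and the ratios with the GC trend removed may differ for those forms. Macrophage and granulocyte markers were also lower in replicate 2 (7 of 7 and 6 of 6 at the count minimum past 2-fold). So were 3 of 4 stem and progenitor markers at that minimum, Kit (ratio 0.267), Cd34 (0.330) and Slamf1 (0.203), and the list's median log2 ratio was -1.75. The part of these cells in the ratios of the factors was not tested.

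**Figure D2:**
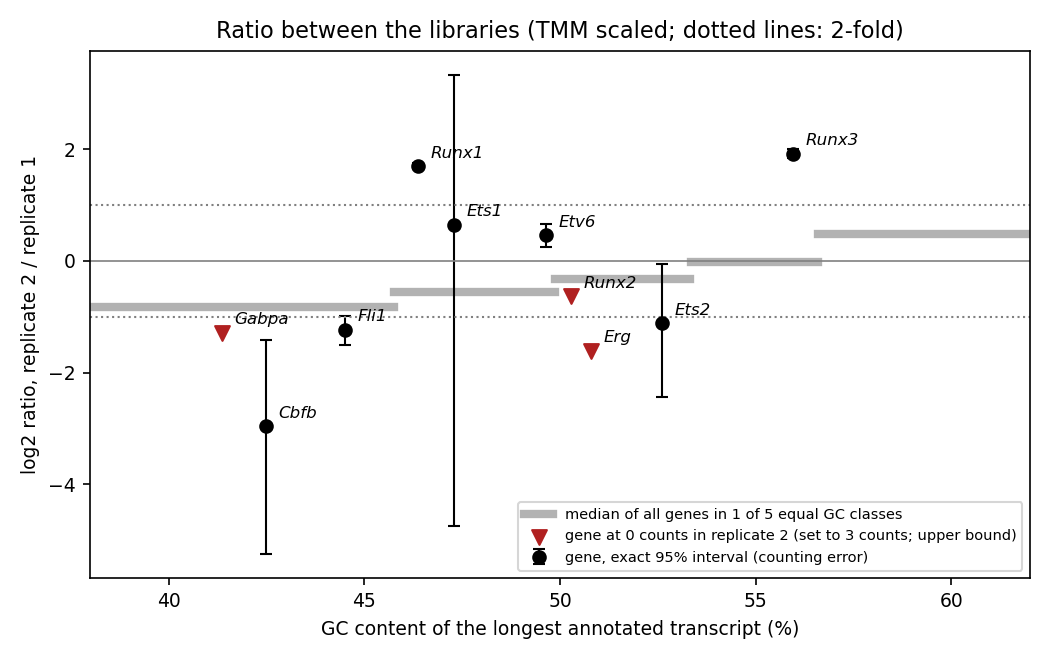
Log2 ratio of replicate 2 to replicate 1 after TMM scaling against the GC content (%) of each gene's longest annotated transcript, with exact 95% intervals (counting error only), triangles for genes at 0 counts in replicate 2 set to 3 counts, and grey bars for the median of all genes in each of 5 equal classes by GC content. Runx1 and Runx3 lie above the upper 2-fold line, and the grey bars rise from -0.82 to 0.48 with GC content.

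Transcript estimates showed which forms of each gene these levels came from. The 10 genes had 65 annotated transcripts, and their transcript shares are estimates in which shared fragments were divided. All 7 genes with TPM in both libraries had the same dominant transcript in each, that is, the transcript with the largest share of the gene's TPM. Of 4695 genes with at least 2 transcripts and a mean of 5 TPM, 66.2% did, and 5 of the 7 (Runx1, Runx3, Cbfb, Fli1 and Etv6) meet those criteria. The agreement fell to 6 of the 7 by expected counts, by the deposited posterior mean TPM and by coding transcripts alone. Cbfb, Ets1 and Ets2 had only 3, 1 and 7 counts in replicate 2. By annotated starts, with starts within 500 bases joined, 5 of 5 genes with more than 1 start had the same dominant start in both libraries, against 82% of 3464 genes with a mean of 5 TPM. Ets1 was the only one of those 5 under that mean.

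Most of Runx1 was assigned to transcripts of the proximal region. No start was measured, and 1597 of the 1985 bases of Runx1-203 lie in exons of the distal form Runx1-201. Fragments there fit both forms, which also end 3932 bases apart, so the split is an estimate. Transcripts starting at the distal window carried 11.23 TPM in replicate 1 (3.62% of the gene's TPM) and 3.94 TPM in replicate 2 (0.428%). In counts these were 2464 of 24901 (9.90%, exact 95% interval 9.53 to 10.3) and 42 of 3218 (1.31%, 0.942 to 1.76). So the distal share was small in both libraries and smaller in replicate 2, and it was larger by counts than by TPM, since the distal transcripts are longer.

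The leading form was Runx1-203, with 94.0% of Runx1 TPM in replicate 1 and 98.6% in replicate 2. It took 21133 counts (84.9%, 84.4 to 85.3) and 3100 counts (96.3%, 95.6 to 97.0). Runx1-203 is 1985 bases long with 6 exons and a coding part of 1353 bases, against 1161 in Runx1-202 and 1395 in the distal form Runx1-201. Its annotated start lies inside the first exon of Runx1-202, 1203 bases after the start shown in the proximal window, and its end lies 1742 bases before that of Runx1-202. Runx1-202 itself carried 6.94 and 8.02 TPM, and Runx1-201 carried 10.78 and 3.94 TPM. Of the remaining forms, Runx1-206 (0.35 and 1.16 TPM) and Runx1-207 (0.45 and 0 TPM) were low, and Runx1-204 and Runx1-205 had no counts.

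Runx3 had counts assigned to both starts. Here too 1563 of the 1855 bases of Runx3-202 lie in exons of Runx3-201, and the forms end 1809 bases apart, so the split is an estimate. Runx3-201, from the distal window, carried 16.72 TPM in replicate 1 (13.6%) and 28.36 TPM in replicate 2 (6.66%), from 2458 (25.5% of counts, 24.6 to 26.4) and 197 (13.5%, 11.8 to 15.4) counts. Runx3-202, whose start lies 31.8 kb after the distal one, carried 106.37 and 397.28 TPM, or 86.4% and 93.3%. As in Runx1, the distal share was lower in replicate 2, and in each library it was larger in Runx3 than in Runx1. The other Runx3 transcripts had no counts.

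Runx2 had no distal counts at all. All 116 counts in replicate 1 were assigned to transcripts starting at least 78.1 kb after the first annotated distal start. A limit of 3 counts for a count of 0 allows a distal share of up to 2.59%, and the upper Clopper-Pearson bound is 3.13%. Its forms were Runx2-209 (1.18 TPM, 58.4%), Runx2-212 (0.47 TPM, 23.3%, annotated as subject to nonsense-mediated decay), Runx2-210 (0.26 TPM, 12.9%) and Runx2-203 (0.11 TPM). By these estimates the 3 RUNX genes all took most of their TPM from the proximal region, Runx2 from 116 counts in replicate 1 alone. In Runx1 that region starts 128.8 kb after the distal start. Whether the paired cores bear on the use of the starts was not tested.

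**Figure D3:**
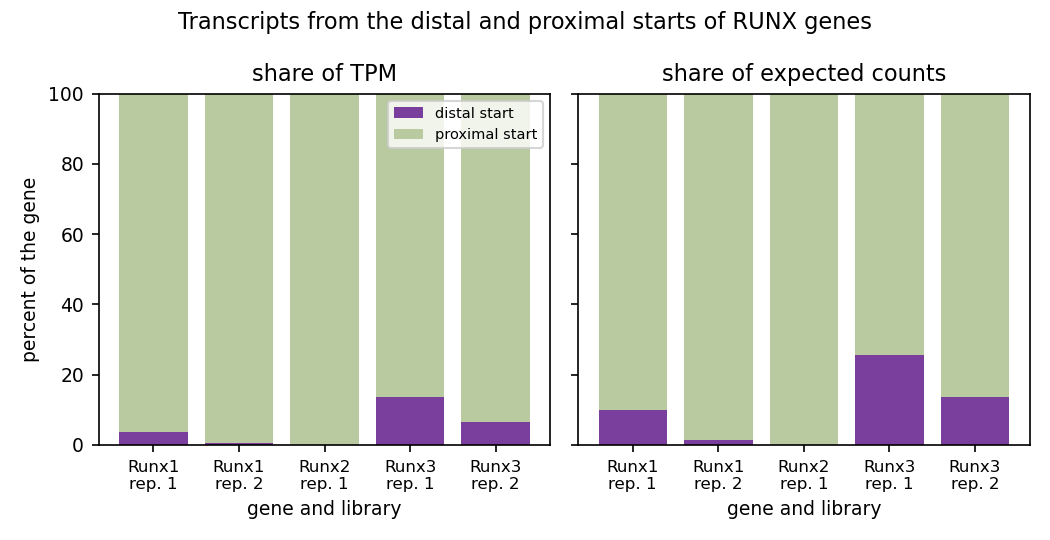
Percent of each RUNX gene's TPM (left) and expected counts (right) from transcripts with distal (purple) and proximal (green) starts in each library; Runx2 had no counts in replicate 2 and is drawn for replicate 1 alone. The distal share is at most 13.6% by TPM and at most 25.5% by counts, both in Runx3 of replicate 1.

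For Etv6 and Cbfb the level by TPM rested on short non-coding forms. Etv6-203, a processed transcript of 373 bases with no coding part, took 84.8% of Etv6 TPM in replicate 1 and 95.1% in replicate 2. It did so with 1153 of 3931 counts (29.3%, 27.9 to 30.8) and 105 of 216 counts (48.6%, 41.8 to 55.5), because TPM divides by length. Of its 373 bases, 284 lie within the coding exons of the full-length Etv6-201, so fragments there fit both forms. Protein coding Etv6 transcripts carried 11.98 and 10.78 TPM (11.4 ± 0.849), which was 8.22% and 4.10% of the TPM but 62.7% and 50.1% of the counts. By coding transcripts alone, Fli1 stood above Etv6 in both libraries.

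Cbfb-205, a retained intron form of 395 bases, took 60.8% of Cbfb TPM in replicate 1 and 78.1% in replicate 2. The second share rests on 0.77 of the 3 expected counts and was 40.9% by the deposited posterior mean TPM, against 60.0% in replicate 1. Coding forms of Cbfb carried 4.51 TPM (31.0% of TPM, 81.9% of counts) and 0.47 TPM (21.9% and 74.3%). In replicate 1 the main coding form was Cbfb-202, with 3.71 TPM, and in replicate 2 it was Cbfb-204, with 0.47 TPM from 2.23 expected counts. Of 6001 protein coding genes at a mean of 5 TPM, 15.9% had a dominant transcript that was not protein coding in both libraries, and among the 5 factors at that level it was Etv6 and Cbfb. Counted by coding transcripts alone, 7 of the 10 factors reached a mean of 1 TPM.

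**Figure D4:**
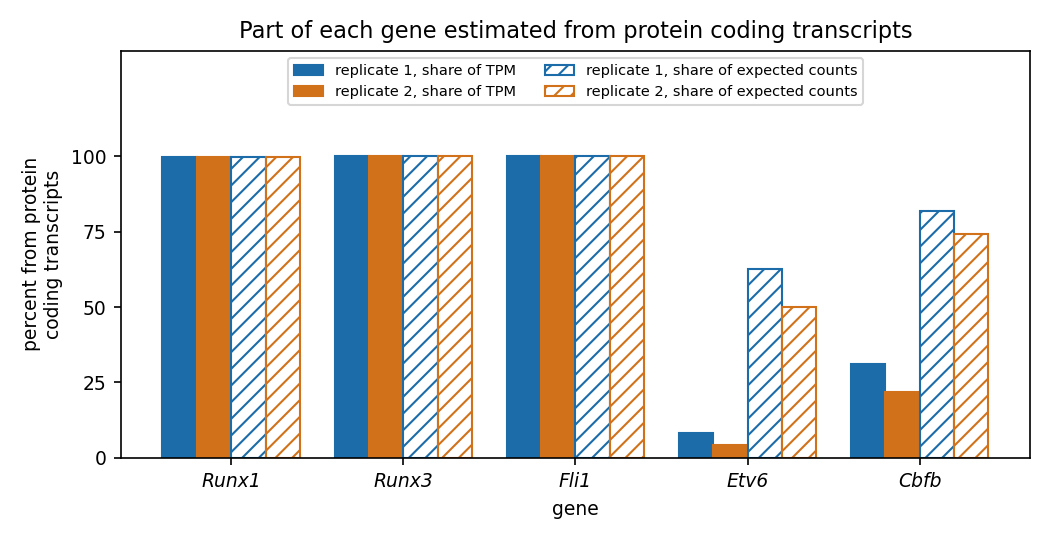
Percent of TPM (filled bars) and of expected counts (hatched bars) from protein coding transcripts for the 5 genes with a mean of at least 5 TPM, in replicate 1 (blue) and replicate 2 (orange). Runx1, Runx3 and Fli1 are near 100% by either measure, while Etv6 has 8.22% and 4.10% of TPM against 62.7% and 50.1% of counts.

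The remaining factors had simpler or thinner records. Fli1-201 took all Fli1 counts in both libraries, and Fli1-202 had none. Ets1-201 held all 16 counts and the 1 count of Ets1. Ets2-201 took 43.9% of Ets2 TPM in replicate 1 and 100% in replicate 2, from 316 and 7 counts, with the rest in replicate 1 on 2 forms (36.7% and 19.4%) that the later annotation release does not hold. Erg-205 took 75.1% of Erg TPM in replicate 1 (121 counts), and the other 24.9% (108 counts) came from a form that release does not hold either. For Gabpa, Gabpa-202 took 43.6%, the processed transcript Gabpa-203 took 32.2% and Gabpa-201 took 24.2% of TPM in replicate 1, while by counts Gabpa-201 led.

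Other ETS family genes gave a wider view of the family. Of 21 such genes 12 reached a mean of 1 TPM, where 22.7% of all Ensembl genes did. A further 6 (Elf5, Ehf, Etv1, Etv3l, Fev and Spic) had no counts in either library. Spi1, the myeloid factor PU.1, was highest at 118.6 and 24.83 TPM (ratio 0.255, 0.204 to 0.314). Erf, a repressor controlled by ERK signalling, stood at 43.18 and 68.79 TPM, and Elk1, a partner of serum response factor, at 13.43 and 32.3 TPM. Together the 21 genes summed to 235 and 169 TPM, below the summed RUNX TPM in each library. At the count minimum 2 of 11 lay past 2-fold upward and 2 downward, against 15.7% and 33.8% over all genes. Their median log2 ratio was -0.11 against -0.30 over all genes. Spi1 and Fli1 were thus both lower in replicate 2, as were most macrophage, granulocyte and stem and progenitor markers at the count minimum, whose part was not tested.

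Cofactors were present more broadly. Of 17 cofactors and partners found, 15 reached a mean of 1 TPM, where 22.7% of all Ensembl genes did. At the count minimum 5 of 14 lay past 2-fold upward and 3 downward in replicate 2, against 15.7% and 33.8% over all genes. Their median log2 ratio was 0.43. The highest was Aes, a short Groucho-family protein, at 2139 and 5380 TPM (ratio 2.96, 2.90 to 3.01). Hipk2, a kinase that acts on RUNX1, stood at 98.09 and 305.4 TPM (3.48, 3.32 to 3.64), and Cbfa2t3, a corepressor of the ETO family, at 62.53 and 191.49 TPM (2.87, 2.69 to 3.06). Runx1t1, the ETO gene itself, was at 0 in both libraries. Gabpb1, a partner subunit of GABPA, stood at 5.81 and 1.92 TPM.

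**Figure D5:**
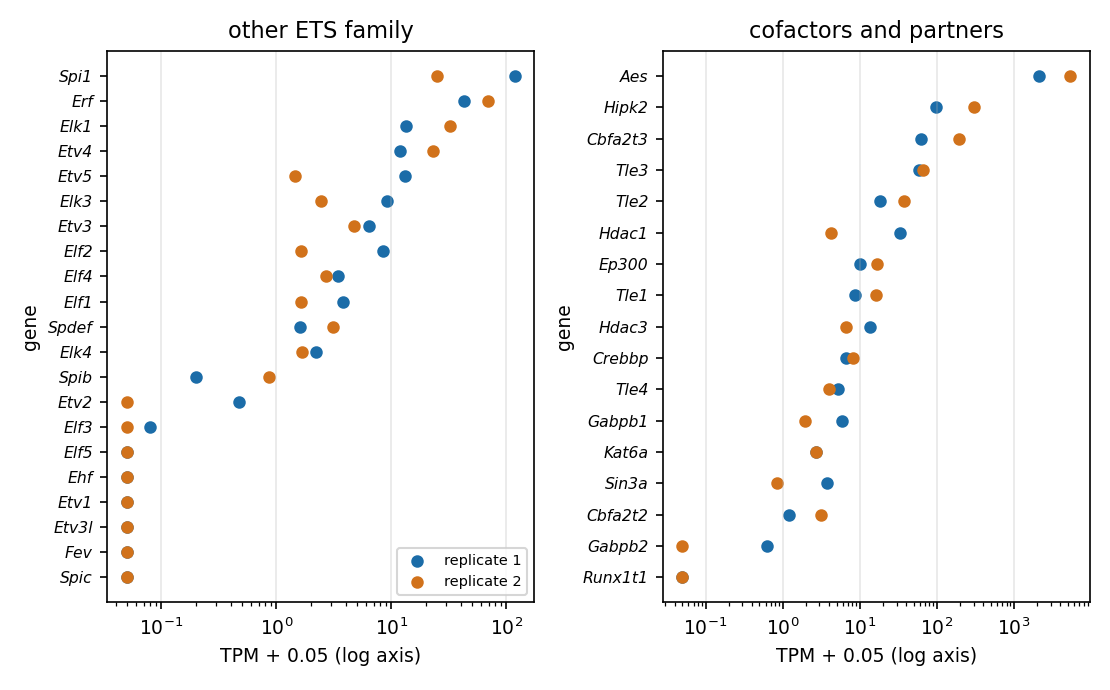
TPM (with 0.05 added, log axis) of 21 other ETS family genes (left) and 17 cofactors and partners (right) in replicate 1 (blue) and replicate 2 (orange), each panel in order of mean TPM. Spi1 leads the left panel at 118.6 and 24.83 TPM, 6 genes there are at 0 in both libraries, and Aes leads the right panel.

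Genes of the megakaryocyte known to carry RUNX or ETS sites were all present. Of these, 15 of 15 reached a mean of 1 TPM, where 22.7% of all Ensembl genes did. Gp9, a subunit of the von Willebrand factor receptor, stood at 2675 and 6744 TPM (ratio 2.94, 2.87 to 3.01), the integrin Itga2b at 4430 and 3388 TPM (1.29, 1.27 to 1.32) and the chemokine Pf4 at 2932 and 633 TPM (0.249, 0.228 to 0.272). Ppbp, a platelet chemokine, stood at 333.71 and 131.04 TPM (0.460, 0.402 to 0.525). Myh10, a non-muscle myosin that RUNX1 is known to repress as megakaryocytes mature, was lowest at 0.64 and 1.98 TPM. The group did not move one way. At the count minimum 2 of 14 lay past 2-fold upward, Gp9 among them, and 3 downward (Pf4, Ppbp and Tubb1). Over all genes 15.7% lay past 2-fold upward and 33.8% downward. The median log2 ratio of the group was 0.28.

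By the distance of log2(TPM + 1) over the 2 libraries, the protein coding genes most like Runx1 were Bag1 (325.24 and 927.32 TPM), Asap1 (349.8 and 958.12 TPM) and Ppp1r15a (347.43 and 838.16 TPM), at distances of 0.070, 0.183 and 0.214. Nearest to Fli1 were Cuedc2 (61.51 and 21.01 TPM), Sirt3 (58.7 and 22.36 TPM) and Trnau1ap (56.79 and 21.53 TPM). Nearest to Gabpa were Ckap2 and Mtr (each at 2.12 TPM in replicate 1) and C1d (2.13 TPM), all at 0 in replicate 2. With 2 libraries this likeness says only that the levels are close in each.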

How the data were processed

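Polyadenylated RNA of mouse megakaryocytes was measured in 2 libraries of 1 group. The authors deposited gene and transcript tables, on mm10 with GENCODE M4 per the file lists beside them, and which aligner and quantifier were used is not given in the sources used here. Deposited expected counts are estimated fragments per gene or transcript, per the file headers. The deposited TPM values are scaled by the authors for effective length and depth, per the file headers. The deposited percent column gives each transcript's share of its gene, per the file headers, and shares were recomputed here from TPM. Symbols, transcript names and starts came from GENCODE M21 on GRCm38, which held 57 of the 65 transcripts, 54 with the same length. Rows that are not Ensembl genes (15 counts in replicate 1 and 0 in replicate 2) were left out.

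Expected counts were rounded to whole numbers and scaled by TMM (edgeR 4.0.16 in R 4.3.3, genes at a mean count of at least 10, factors 1.16 and 0.859), with DESeq2 1.42.0 size factors, total counts, TPM and a GC trend (lowess, fraction 0.3) as alternatives. The scaling was tested on simulated counts. A count of 0 was set to a floor of 3 counts (0.0713 CPM for replicate 1 and 1.32 CPM for replicate 2, where CPM is the count after the usual scaling by library size). Count intervals are exact Poisson, and those of ratios and shares Clopper-Pearson at 95%. They cover counting error alone: no molecular identifiers are recorded, and copies of 1 molecule may be counted more than once. The remaining work was done in Python 3.11.15 with statsmodels 0.14.6, scipy 1.17.1, pandas 2.3.3, numpy 2.4.6 and matplotlib 3.10.9. No test was run, since there is 1 group.

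The genes, the 13 lists and the alternatives were chosen with earlier results of these data known. Of 141 list entries 140 were found by symbol. The text names all 10 genes, their transcripts with at least 10% of the gene's TPM (by share alone where the later release has no name for them) and RUNX transcripts by start, the 3 highest and the lowest gene of the ETS, cofactor and megakaryocyte gene lists with any gene there past 2-fold at a mean of 100 TPM, and the 3 protein coding genes nearest to Runx1, Fli1 and Gabpa. Marker lists are given by counts and sums. The values of 1 gene that this rule names are not reported here. Other genes named (a partner subunit, genes at 0, Tubb1, genes overlapping a factor and those sharing the paired motif) were chosen after their values were seen.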

Additional observations from a re-analysis of the deposited data

How the results depend on the processing

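Of 116 recomputed values, 97 stayed within their limits (1 SD of the 2 libraries for a level, the counting interval for a ratio, 1.5 times for a count of genes), 19 moved and 0 changed direction. A change of direction was scored only for genes at least 2-fold apart in the main result, which are part of the 37 ratio values. Rescaling TPM over Ensembl genes could hardly move a level, since these genes already summed to 999934 TPM in replicate 1. With 2 libraries a level from either alone always lies within 1 SD of the mean, so this says nothing of the stability of levels: Runx2, Erg and Gabpa were at 0 without replicate 1. With a minimum of 5 TPM in place of 1, 5 of the 10 genes were detected in place of 9. With a mean of at least 50 CPM in place of a mean count of 100, 4 genes were compared and 1 of them (Fli1) was at least 2-fold lower in replicate 2, while Runx1 and Runx3 stayed higher; over all genes the shares became 26.4% higher and 15.8% lower. Total counts gave 7.30% higher and 43.5% lower over all genes. Without replicate 1 the number at 1 TPM or more was 6, and without replicate 2 it was 9. Coding transcripts alone lowered the mean of Etv6 to 11.4 TPM, and posterior mean TPM raised those of Runx2, Gabpa and Ets1, genes with few counts, to 4.18, 3.0 and 0.97. By counts in place of TPM, the mean distal share rose to 5.60% for Runx1 and 19.5% for Runx3. The last alternative, those on levels and detection from coding transcripts and that on joining starts within 2000 bases were added after the data were seen. No paired analysis was possible because there is 1 group. Ratios between the 2 libraries cannot be recomputed with a library left out. Depth limits replicate 2 most, where 6 of the 10 genes had 7 counts or fewer.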
